A study of Mus musculus with 14 samples.

Results

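The 18S rRNA is the RNA of the small ribosomal subunit, and the deposited table of Pseudo-seq peak values holds 39 positions of it, listed as mm_18S_rRNA, among 107 rRNA positions in all. The rule takes members by the name of the RNA in the table and not by measured values, though it was set with earlier results of these data known. Members were divided by position alone into a window at the 5′ end (positions 1 to 670), a central window (671 to 1210) and a window at the 3′ end (1211 to 1870). The windows stand for the 5′, central and 3′ domains of the RNA. That assignment came with the rule and was not tested against a structure, and positions are counted as deposited, with the origin of the count unstated.

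Peak values came from whole spleens of C57BL/6J mice, 4 wild-type (WT) animals and 3 animals labelled HET, which the series title gives as Naf1+/-. Every animal contributed 1 library made with 0.4 M CMC and 1 library made without it. CMC is a carbodiimide that leaves an adduct on pseudouridine, the rotated isomer of uridine, and reverse transcriptase stops at that adduct. The table names wild-type columns A to D and heterozygous columns E to G, and these letters are used below as names only. Age, sex and the nature of the Naf1 allele are not given in the sources used here, and the table holds no level of Naf1 itself.

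In eukaryotic rRNA most pseudouridines are made by H/ACA small nucleolar ribonucleoproteins, in which a guide RNA pairs with the rRNA on both sides of the target uridine and the enzyme dyskerin isomerises it. NAF1 joins the particle during its assembly at the guide RNA gene and is later exchanged for GAR1. The proteins of these particles also bind telomerase RNA. In the small subunit, the 5′ domain of 18S rRNA forms the body, the central domain the platform and the 3′ domain the head and the long helix of the decoding centre. The guide RNA of each position was not used here.

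The peak value is a score of the authors with no stated unit or formula, so it does not give the share of molecules modified, and its 0 is not a measured absence of pseudouridine. The depth of reads behind a value is unknown, and the number of animals limits the precision. Genotypes were compared at each position with limma over all 107 positions, adjusted over all of them. Means over a window are described without a test. Because whole spleen was used, a difference in every cell and a difference in the mix of cells cannot be told apart. The labels number the animals, but whether they share litters or processing days is not given.

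The listed 18S positions were not spread evenly. The central window held 17 positions, or 3.15 per 100 nt, the 5′ window 14 (2.09 per 100 nt) and the 3′ window 8 (1.21 per 100 nt). The first position was 34 and the last 1692, and the longest stretch with none listed was the 185 nt between 222 and 407. Levels were grouped into classes by set limits of 15 and 1, not by breaks in the data. Over the 7 animals the mean peak value was 15 or more at 15 positions, from 1 to under 15 at another 15, and under 1 at 9. All 15 positions of the top class and 14 of the 15 middle ones carried the authors' pass mark, whose rule is not stated, and none of the 9 lowest did. The passing position with the smallest mean was 1347 (1.86) and the highest without the mark was 682 (1.28). Of the 39 positions, 36 were above 0 in every animal and 2, positions 212 and 802, were below 0 in every animal.

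**Figure D1:**
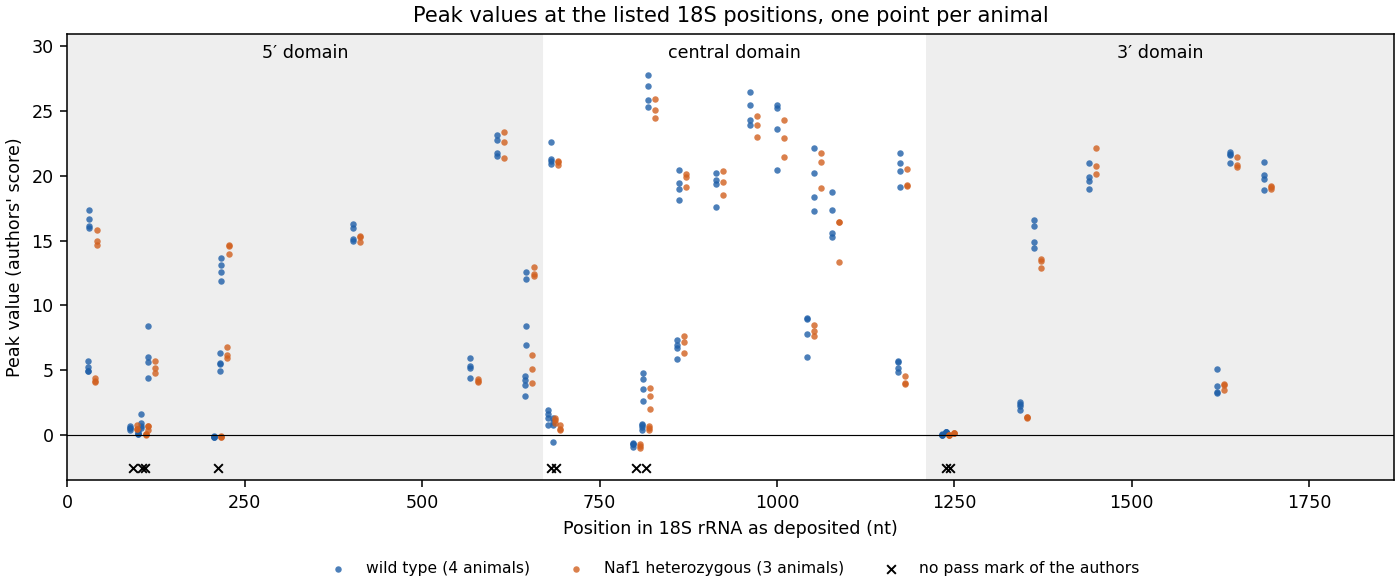
Peak value (authors' score, vertical axis) against position in 18S rRNA (horizontal axis, nt), with 1 point per animal, blue for wild type and orange for heterozygous. Shading marks the windows and crosses mark the 10 positions without the authors' pass mark. The central window holds 9 of the 15 positions with a mean of 15 or more.

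The central window had the highest values in every animal. Its mean peak value was 13.5, 12.5, 12.7 and 12.6 in wild-type animals A to D and 12.8, 12.2 and 12.3 in heterozygous animals E to G. The 3′ window followed with 10.9, 10.4, 10.1 and 10.3 in A to D and 10.2, 9.86 and 9.86 in E to G. The 5′ window was lowest, with 7.44, 7.58, 7.70 and 7.18 in wild type and 7.60, 7.60 and 7.46 in heterozygotes. This order held in all 7 animals. A mean of 15 or more was reached at 9 of 17 central positions, against 3 of 14 in the 5′ window and 3 of 8 in the 3′ window.

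Between genotypes, the window means differed by small amounts, and the animals overlapped in all 3 windows. In the 5′ window wild-type animals averaged 7.48 ± 0.224 (SD, n = 4) and heterozygous animals 7.56 ± 0.0812 (SD, n = 3), which left a difference of 0.079 (SE 0.121). That sign did not hold, since it was -0.074 after scaling each animal by its median over all positions and -0.018 without wild-type animal D. In the central window the means were 12.8 ± 0.484 and 12.4 ± 0.298, a difference of -0.388 (SE 0.297), which was -0.149 without wild-type animal A. The 3′ window gave 10.4 ± 0.328 and 9.97 ± 0.186, a difference of -0.436 (SE 0.196), or -0.279 without animal A. Over all 39 positions the difference was -0.230 (SE 0.174), and -0.099 without animal A. As a median over positions in place of the mean it was 0.497, of opposite sign, and the central and 3′ differences were -0.966 and -1.15. Such a median reads only the middle of the ordered positions, so it does not describe a shift of the whole window. Over all 39 it was the value of position 864, or of 220 in animal F. In the central window it was that of 1082, or of 1057 in animal A, and in the 3′ window the average of 1367 and 1625. After division by animal medians the mean differences became -0.631 in the central window, -0.639 in the 3′ window and -0.433 over all 39. Without scaling, heterozygous means stood at 101% of wild type in the 5′ window, 97.0% in the central window and 95.8% in the 3′ window. Whether the windows differ in this respect was not tested.

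**Figure D2:**
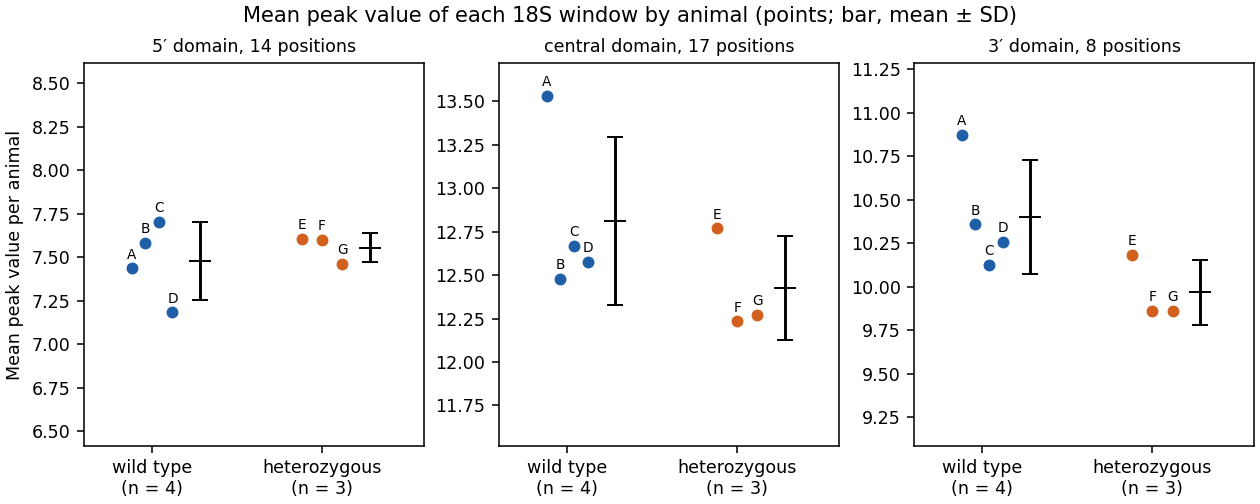
Mean peak value over the positions of each window (vertical axis, which does not start at 0, 1 panel per window), with 1 lettered point per animal and a bar for the mean ± SD of each genotype. Animal A stands highest in the central and 3′ windows, at 13.5 and 10.9, and the genotypes overlap in each panel. The small 5′ difference of 0.079 is -0.074 when animals are scaled by their medians.

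Counted position by position, lower heterozygous means outnumbered higher ones in the central and 3′ windows and equalled them in the 5′ window. They were found at 26 of 39 positions (66.7%), against 70.1% of all 107 positions. By window they were 7 of 14 in the 5′ window, 12 of 17 in the central window and 7 of 8 in the 3′ window. The median difference per position was -0.021, -0.275 and -0.312 in that order, against -0.272 over all 107 positions. No 18S position had an adjusted p under 0.05 by limma, and 0.0% of all 107 positions did. The smallest adjusted p was 0.125, shared by the positions with the most negative statistic in each window.

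Before adjustment, 5 positions were lower in heterozygotes at a limma p under 0.05 (12.8% of 39, against 15.9% of all 107) and 1 was higher (2.56%, against 2.8%). The lower ones were 34, 573, 1175, 1347 and 1367, and the higher one was 222. Without heterozygous animal F the 5 lower positions became 3. With single animals left out, position 222 stayed under that p only without animal B. The count of higher positions was 0 without A, D, E or F and 2 without wild-type animal C. Every heterozygous animal lay below every wild-type animal at 7 positions (17.9%, against 14.0% of all 107), and above at 1 (2.56%, against 1.87%). The latter became 2 without A or G and 4 without C, though leaving out an animal can only add to such counts. These shares lie near those of the whole table.

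**Figure D3:**
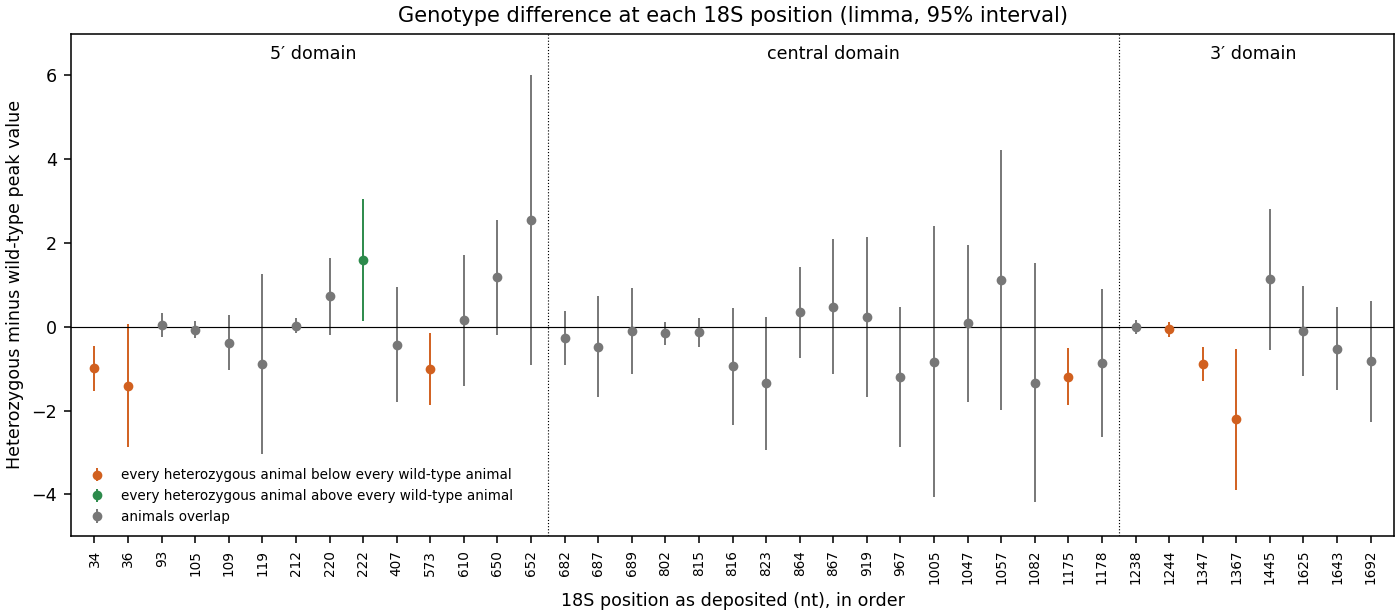
Heterozygous minus wild-type peak value (vertical axis) at each 18S position in order along the RNA (horizontal axis), with limma's 95% interval for each position alone. Orange marks the 7 positions with every heterozygous animal below every wild-type animal, green the 1 position with the reverse, and grey the positions at which animals overlap. The widest interval, at position 652, runs from -0.900 to 6.01.

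The 5′ window held positions that differed in opposite directions. Positions 34 and 36, 2 nt apart near the start of the RNA, were both lower in heterozygotes. At position 34 the peak value was 5.23, 5.69, 4.94 and 4.96 in wild-type animals A to D and 4.11, 4.17 and 4.37 in heterozygous animals E to G. The genotypes did not overlap, and the difference was -0.993 (SE 0.227, limma adjusted p = 0.125), with the heterozygous mean at 80.9% of wild type. Position 36, with a mean over the 7 animals of 15.9 against 4.78 at position 34, read 17.4, 16.1, 16.0 and 16.7 in wild type and 15.8, 14.9 and 14.6 in heterozygotes. Again no animal overlapped, although the gap between the lowest wild-type value and the highest heterozygous one was only 0.156. The difference there was -1.40 (95% interval -2.88 to 0.0756, limma adjusted p = 0.266), 91.5% of wild type.

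Position 573 was the other 5′ position with separate animals and a lower heterozygous mean. It read 5.97, 5.29, 4.37 and 5.13 in wild type and 4.28, 4.17 and 4.11 in heterozygotes. Heterozygous values were close together, with an SD of 0.0853, while wild-type ones had an SD of 0.658, and animal C lay 0.0888 above heterozygous animal E. The difference was -1.0 (SE 0.362, limma adjusted p = 0.216), or 80.7% of wild type.

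Of the 7 positions of this window with a higher heterozygous mean, 4 formed 2 neighbouring pairs, 220 with 222 and 650 with 652, and the other 3 (93, 212 and 610) differed by at most 0.151. At position 222 the peak value was 12.6, 13.7, 13.1 and 11.9 in A to D and 14.7, 14.6 and 13.9 in E to G. All heterozygous animals were above all wild-type animals, by a margin that closed when animals were scaled by their medians. The difference was 1.59 (95% interval 0.141 to 3.04, limma adjusted p = 0.216), or 112% of wild type. At position 220 the genotype means were 5.57 ± 0.584 (SD, n = 4) and 6.29 ± 0.428 (SD, n = 3), a difference of 0.723 with overlapping animals. Position 650 read 3.02, 4.22, 4.52 and 3.83 in wild type and 6.17, 5.05 and 4.01 in heterozygotes, so that animal G lay within the wild-type range. The difference was 1.18 (limma adjusted p = 0.334), or 130% of wild type.

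Position 652 had the largest difference of any 18S position and also the widest spread. It read 6.97, 12.04, 12.6 and 8.44 in A to D and 12.4, 13.0 and 12.3 in E to G. Wild-type animals B and C were at the heterozygous level, and A and D were well below it. The difference of 2.56 therefore had an SE of 1.45 (limma adjusted p = 0.408). Without the 2 positions farthest from 0 in each window, 652 and 222 in this one, the 5′ window mean differed by -0.253 in place of 0.079.

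At the highest 5′ position, 610, the genotype means lay close together. Its values were 21.5, 23.2, 22.8 and 21.8 in wild type and 21.4, 22.6 and 23.4 in heterozygotes, so the heterozygous animals spanned the wild-type ones. The difference was 0.151 (95% interval -1.40 to 1.71), and it was -0.334 after scaling by each animal's median. Position 407, whose nearest listed neighbour was 166 nt away, gave 15.6 ± 0.638 (SD, n = 4) and 15.2 ± 0.270 (SD, n = 3).

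The lowest 5′ positions sat close to 0. Position 105 read 0.263, 0.0486, 0.0876 and 0.126 in wild type and 0.0757, 0.0228 and 0.0954 in heterozygotes. At position 212 every value was negative, at -0.180, -0.184, -0.116 and -0.174 in A to D and -0.161, -0.0897 and -0.167 in E to G. Differences there were -0.067 and 0.024, each with overlapping animals. Positions 93 and 109 had means over the 7 animals of 0.540 and 0.780, and position 119 was higher, at 6.10 ± 1.69 (SD, n = 4) and 5.22 ± 0.434 (SD, n = 3), with animal A alone at 8.41.

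The central window contained the highest position in 18S and 4 of the 6 widest spreads between animals. Position 823 read 27.8, 27.0, 25.9 and 25.3 in wild-type animals A to D and 25.9, 25.1 and 24.5 in heterozygous animals E to G. Animals C and D were at the level of E and F, so the genotypes overlapped. The difference was -1.35 (95% interval -2.94 to 0.245, limma adjusted p = 0.337), or 94.9% of wild type. Position 967, the next highest, read 26.4, 25.5, 23.9 and 24.3 in wild type and 24.6, 23.9 and 23.0 in heterozygotes. There the difference was -1.20 (limma adjusted p = 0.417), again with animals C and D among the heterozygous values.

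Position 1175 was the only central position at which the animals were separate. It read 5.65, 4.83, 5.19 and 5.71 in wild type and 4.55, 3.91 and 4.0 in heterozygotes. The highest heterozygous value, in animal E, lay 0.284 under the lowest wild-type value, in animal B. The difference was -1.19 (95% interval -1.88 to -0.510, limma adjusted p = 0.125), or 77.7% of wild type. Its neighbour 1178, 3 nt further and with a mean of 20.2 over the 7 animals, gave 20.6 ± 1.097 (SD, n = 4) and 19.7 ± 0.749 (SD, n = 3), a difference of -0.861 with overlapping animals.

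The most positive central statistics were at positions 864 and 1057, and neither separated the genotypes. At position 864 the values were 7.29, 5.88, 6.71 and 6.93 in wild type and 7.20, 6.31 and 7.61 in heterozygotes, a difference of 0.341 (limma adjusted p = 0.674). Position 1057 read 17.3, 22.2, 20.2 and 18.3 in wild type and 21.0, 21.7 and 19.1 in heterozygotes. All heterozygous values fell between wild-type animals D and B. The difference of 1.12 had a 95% interval of -1.99 to 4.23 (limma adjusted p = 0.650), and it ranged from 0.375 to 2.01 as each animal was left out.

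Several strong central positions had heterozygous means within a few percent of wild type. Position 687 was at 97.8%, position 867 at 102%, position 919 at 101% and position 1005 at 96.5%. Among positions of middle level, 1047 was at 101% and 816 at 75.3%, the latter with overlapping animals (3.82 ± 0.923 in wild type and 2.88 ± 0.790 in heterozygotes, SD). Position 1082 gave 16.7 ± 1.61 (SD, n = 4) and 15.4 ± 1.76 (SD, n = 3), with the lowest value, 13.4, in heterozygous animal F.

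At the bottom of the central window, position 802 was negative throughout, at -0.673, -0.916, -0.724 and -0.596 in wild type and -0.878, -1.03 and -0.733 in heterozygotes. Position 689 read 0.763, 1.29, 0.953 and -0.546 in wild type and 0.726, 0.464 and 0.355 in heterozygotes. Only animal D was below 0 there, and the difference of -0.100 turned to 0.125 without animal B and to 0.012 without animal C. The other positions of this window without the pass mark were 682 and 815, with means over the 7 animals of 1.28 and 0.590.

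In the 3′ window the animals were separate at 1244 and, at higher levels, at 1347 and 1367, positions 20 nt apart. At position 1347 the peak value was 2.38, 2.53, 2.19 and 1.88 in wild type and 1.31, 1.36 and 1.40 in heterozygotes. The lowest wild-type value was 0.481 above the highest heterozygous one, and the heterozygous SD was 0.0443. The difference was -0.892 (95% interval -1.29 to -0.489), which put heterozygotes at 60.3% of wild type. Its adjusted p by limma was 0.125, and 0.035 to 0.374 over the alternatives, with the lowest reached without wild-type animal D. Position 1367, with a mean of 14.6 over the 7 animals, read 16.6, 14.9, 14.4 and 16.1 in wild type and 13.4, 12.9 and 13.6 in heterozygotes. No animal overlapped, and the difference of -2.21 (95% interval -3.89 to -0.527, limma adjusted p = 0.163) was the most negative of the 39.

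Only position 1445 had a higher heterozygous mean in the 3′ window. It read 21.0, 19.0, 19.6 and 19.9 in wild type and 22.2, 20.8 and 20.1 in heterozygotes. Animal A was above heterozygous animals F and G, so the ranges overlapped. The difference was 1.13 (95% interval -0.550 to 2.81, limma adjusted p = 0.446), or 106% of wild type.

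The remaining strong 3′ positions lay toward the end of the RNA. Position 1643, the highest of the window, read 21.6, 21.8, 21.0 and 21.7 in wild type and 21.5, 20.7 and 20.9 in heterozygotes, a difference of -0.526 with animal E inside the wild-type range. Position 1692 gave 19.96 ± 0.917 (SD, n = 4) and 19.1 ± 0.120 (SD, n = 3), and position 1625 gave 3.85 ± 0.828 and 3.75 ± 0.255. Neither separated the animals.

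Positions 1238 and 1244, 6 nt apart and both without the pass mark, lay close to 0 in every animal. Position 1238 read 0.0258, 0.0159, 0.0139 and 0.0109 in wild type and 0.0122, 0.0016 and 0.0182 in heterozygotes, where the ranges overlapped. Position 1244 read 0.249, 0.189, 0.198 and 0.184 in wild type and 0.154, 0.114 and 0.165 in heterozygotes. There every heterozygous animal was lower, by a difference of -0.061 (limma adjusted p = 0.669). limma moderated the small spread of such low positions upward, to an SE of 0.0734 at 1244.

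**Figure D4:**
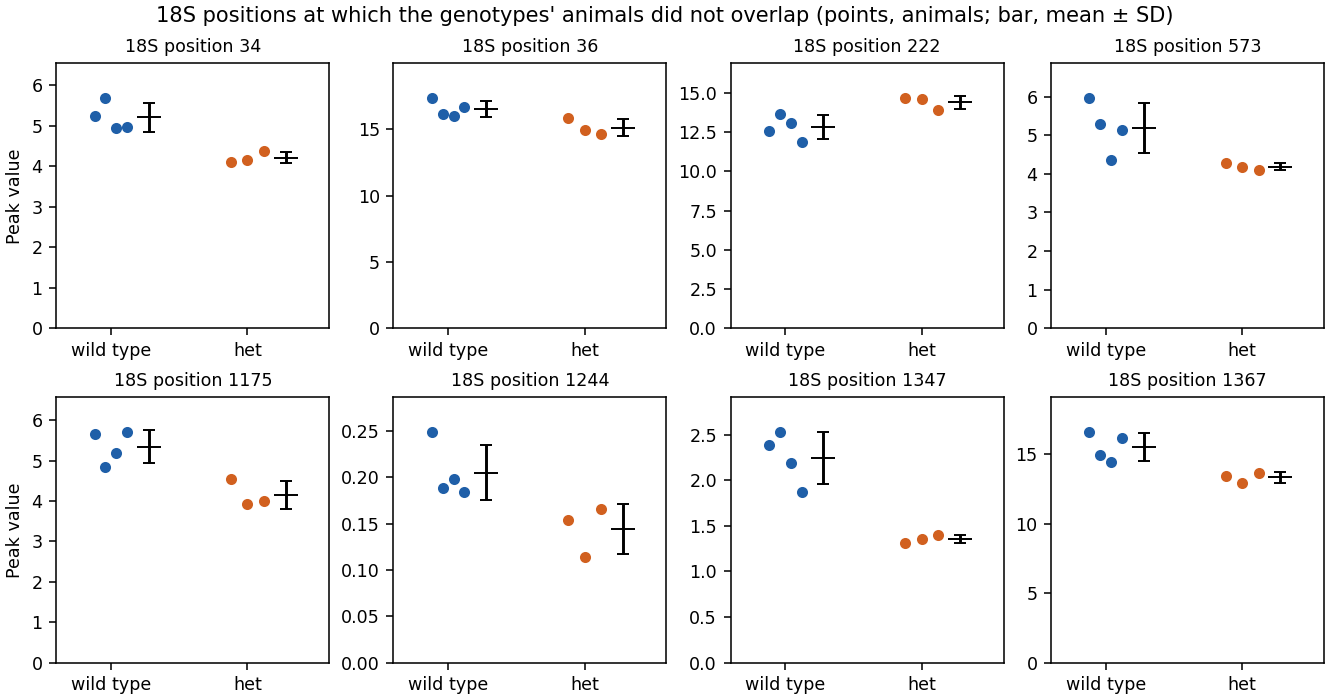
Peak values (vertical axes, each starting at 0 and with its own scale) of the 4 wild-type animals (blue) and the 3 heterozygous animals (orange) at the 8 positions of 18S with separate animals, with bars for the mean ± SD. Position 222 is the 1 position at which heterozygous animals are higher. Position 1244 lies below 0.25 in every animal.

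Close neighbours in 18S shared the sign of their genotype difference. Within 18S, 9 pairs of positions lay at most 5 nt apart and held 17 of the 39 positions. In all 9 pairs the heterozygous minus wild-type difference had the same sign at both positions, against 17 of the other 29 pairs of consecutive positions (58.6%). In 28S the same count was 11 of 17 pairs within 5 nt (64.7%) and 22 of 48 farther apart (45.8%). Of the 18S pairs, 34 with 36, 105 with 109, 682 with 687, 687 with 689, 815 with 816 and 1175 with 1178 were lower in heterozygotes, and 220 with 222, 650 with 652 and 864 with 867 were higher. Position 687 counts both in the pair with 682 and in that with 689. The difference at 689 turned to 0.125 without animal B and to 0.012 without animal C, so the count depends on single animals. Neighbours are read from overlapping RNA fragments of the same animals, so they are not independent, and no test was made of the count of pairs.

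The position nearer the 3′ end was usually the higher of a close pair. It had the higher mean in 8 of the 9 pairs within 5 nt in 18S (88.9%) and in 13 of 17 in 28S (76.5%), against 13 of 29 (44.8%) and 24 of 48 farther apart. Each of these 8 pairs showed it in all 7 animals, and the exception, 687 with 689, showed the reverse in all 7. The means over the 7 animals were, for example, 4.78 at position 34 and 15.9 at 36, 6.85 at position 864 and 19.5 at 867, and 4.83 at position 1175 and 20.2 at 1178. Reverse transcriptase reaches the position nearer the 3′ end first. Whether that bears on the order was not tested.

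**Figure D5:**
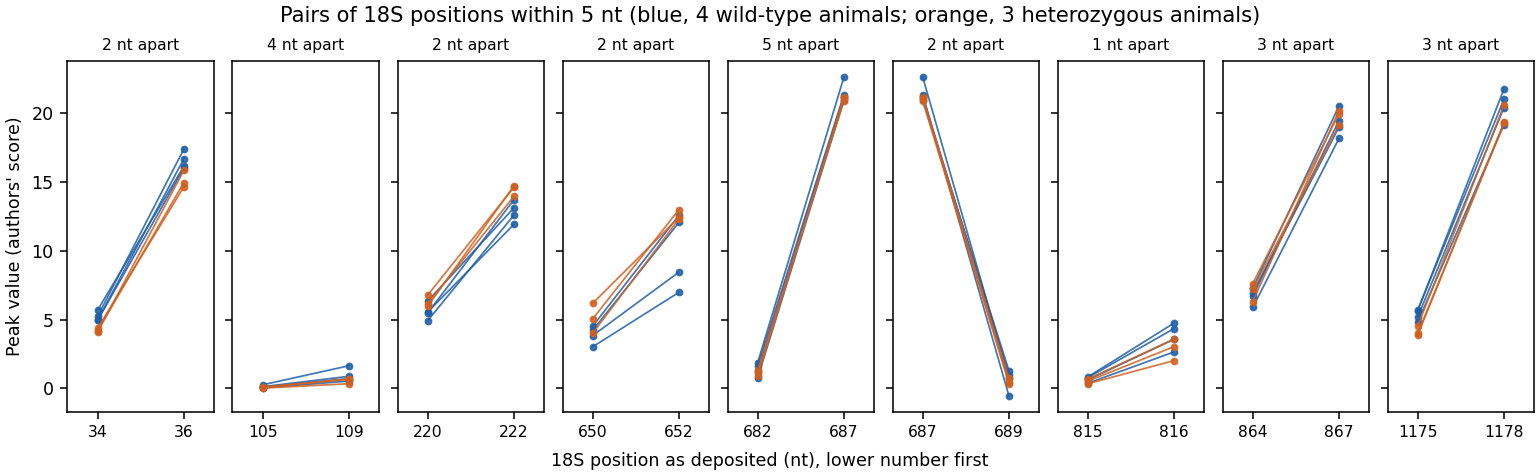
Peak values (vertical axis, shared by all panels) at both members of each pair of 18S positions within 5 nt, the lower number on the left, with 1 line per animal, blue for wild type and orange for heterozygous. Lines slope up to the right in 8 panels and down in the panel of 687 and 689. Animals A and D are the low wild-type lines at position 652, at 6.97 and 8.44.

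The spread between animals grew with level but was not set by it alone. The SD pooled within genotypes had a median of 0.918 over the 15 positions with a mean of 15 or more, 0.646 over the 15 middle ones and 0.139 over the 9 lowest. The widest were 2.13 at position 652, 2.01 at 1005, 1.89 at 1057, 1.67 at 1082, 1.34 at 119 and 1.14 at 1047. The highest position, 823, had 0.971, and position 1643 had 0.392 at a mean of 21.3. Of the 6 positions with a limma p under 0.05 before adjustment, all 6 belonged to the middle class. Among them, 1367 had a mean of 14.6, just under the set limit of 15. No share by class is given over all 107 positions. In the middle class the median heterozygous level, relative to wild type, was 85.8% (range 60.3% to 130%), against 97.3% (range 91.5% to 106%) in the top class. In the lowest class it was 67.3% over the 6 positions above 0 in every animal. All are shares of a score whose 0 has no stated meaning. The median difference in score itself was -0.526 in the top class, -0.275 in the middle class and -0.067 in the lowest.

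Individual animals departed from the rest in different windows. Wild-type animal A had the highest value at 18 of the 39 positions, 9 of them in the central window, and the lowest at 5, of which 4 were in the 5′ window. Heterozygous animal F was lowest at 11 positions and wild-type animal B at 10, whereas animal C was lowest at none. The median departure from the 7-animal mean over the 39 positions was 0.595 in animal A, -0.252 in F, -0.217 in G and between -0.031 and 0.025 in B, C, D and E. The 28S means per animal gave the same animal at the top, with 8.59, 8.18, 8.11 and 7.88 in A to D and 8.09, 7.58 and 7.83 in E to G. In 5.8S they were 12.9, 11.8, 11.98 and 11.4, and 11.98, 11.5 and 11.5.

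At the 29 positions of 18S with the authors' pass mark, the intervals of single positions bound the change in score, not the change in modification. Taking the wild-type mean as known, limma's 95% interval lay above a fall of 50% at 27 of the 29 and above a fall of 25% at 20. By window the latter was 7 of 10 in the 5′ window, 10 of 13 in the central window and 3 of 6 in the 3′ window. The 2 positions at which a fall of 50% lay inside the interval were 816 and 1347.

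Positions not described animal by animal numbered 17. Their limma adjusted p ran from 0.373 to 0.952, with a lower heterozygous mean at 12 and a higher one at 5.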

How the data were processed

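Pseudo-seq libraries of spleen RNA were made with and without CMC from 4 wild-type and 3 heterozygous mice, 14 libraries in all. Reads were aligned with Bowtie (no version given) to mm10, per the submitters' processing notes. In the deposited table each animal has 1 score at each position, called peak value by the authors, whose formula, scaling and use of the library without CMC are not given in the sources used here. Columns were mapped to genotypes by name, and their letters match no label. No read depth is known, and intervals cover the spread between animals only.

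Computed here were means, SDs and differences per animal, window and position, and limma 3.58.1 in R 4.3.3 (lmFit, eBayes with trend, heterozygous minus wild type, two-sided) over all 107 positions with Benjamini-Hochberg adjustment and a threshold of 0.05. The code was run on simulated data with the same spread at every position and planted changes several times that spread. That run does not show how the fit performs at the unequal spreads and smaller differences of these data. The members, windows and lists were chosen with earlier results of these data known. Values of every animal are given for positions past the threshold, for the 2 most negative and 2 most positive statistics and the 2 highest and 2 lowest levels of each window, and for positions without overlap, with 652 added after its values were seen. No paired analysis was possible because the columns carry no replicate numbers and the genotypes share none. Tried as alternatives were the log2 of the deposited score plus 1 (negative scores first set to 0), a mean of at least 1, division by an animal's median, leaving out neighbours within 5 nt, medians, limma without trend, robust or with animal weights, an exact permutation test per position and leaving out each animal. Restriction to the pass mark and removal of the 2 largest differences per window were added after seeing the data. No sequence of 18S rRNA was used here.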

Additional observations from a re-analysis of the deposited data

Results flagged for a closer look

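At position 212, wild-type animal C (-0.116) stood apart from the other 3 wild-type animals (-0.184 to -0.174), by a gap of 0.853 of the group's range, past Dixon's 95% critical value for 4 animals. All 39 positions were examined in this way in wild type, and chance alone flags about 1 in 20, or 1.95 of the 39. The wild-type means of each window and of all 39 positions were examined too, 43 groups in all. None of those means was flagged. Groups of 3 heterozygous animals were not examined.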

How the results depend on the processing

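No 18S position passed adjustment in the main limma fit, and 1 did, position 1347, when neighbours within 5 nt were removed or when wild-type animal D was left out (range 0 to 1 over single animals left out). The count of positions lower before adjustment was 5 and ranged from 3 to 6 with an animal left out. Without neighbours within 5 nt, where 22 positions of 18S were left, it was 3. Positions 34 and 1175 were among those removed, and 573, 1347 and 1367 stayed at a limma p under 0.05. The count of positions higher was 1, position 222, and ranged from 0 to 2 with an animal left out. It became 0 with scaling by each animal's median, a minimum mean of 1, the pass mark only or robust limma. It was also 0 by the exact permutation test per position, and without neighbours, where 222 itself was removed. That exact test gave a smallest adjusted p of 0.340 over all positions, with 4 positions of 18S at its smallest p, 0.0286. With only 35 ways to assign the animals, it can give no lower p, and 9 positions of the whole table reached it. At that floor a position passes adjustment only if many others share it. The exact test therefore cannot decide whether any single position passes. Positions with every heterozygous animal lower numbered 7 to 10 with an animal left out. Those with every heterozygous animal higher numbered 1 to 4, and 0 after scaling. Leaving out an animal cannot undo a separation, so those counts could only stay or rise and do not test it.

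The 5′ window difference, 0.079, ranged from -0.018 to 0.155 with an animal left out. It changed sign with scaling (-0.074), as a median over positions (-0.230) and without the 2 largest differences (-0.253). It was also negative without neighbours (-0.350), which removed 34, 36, 105, 109, 220, 222, 650 and 652 from this window. As medians the central and 3′ differences were -0.966 and -1.15, and that over all 39 positions was 0.497, against -0.230 as a mean. These medians rest on the few middle positions named with the window means. With an animal left out the mean differences ranged from -0.560 to -0.149 in the central window, from -0.543 to -0.279 in the 3′ window and from -0.336 to -0.099 over all 39. Among the 21 positions of the naming rule, 284 of 293 alternative values kept their direction and their side of the threshold. Much of this was built in. A minimum mean, leaving out neighbours, the pass mark, no trend and robust limma leave the difference itself unchanged, so direction could not change there. In the main fit no position was past the threshold, so the side could change only by a position passing. Position 1347 passed in 2, as above, and signs changed at position 610 with scaling (-0.334) and with an animal left out (-0.298 to 0.689), at 689 (-0.487 to 0.125) and at 212 (-0.00024 to 0.0402). On the log2 scale, positions 212 and 802 held no value. Apart from the medians and the positions removed, the cause of these changes was not tested. With 4 and 3 animals and unknown depth, small changes could not be detected. The intervals given are for single positions without adjustment, so they do not mark the limit of detection after it.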
